A study of Mus musculus with 282 samples.

Results

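The expression of 5 acute phase genes, Saa3 (ENSMUSG00000040026), Hp (ENSMUSG00000031722), Slpi (ENSMUSG00000017002), Lcn2 (ENSMUSG00000026822) and Lrg1 (ENSMUSG00000037095), was followed in single mouse granulocyte-monocyte progenitors (GMPs). These 5 of 55450 gene identifiers were grouped as genes induced by TNF, so they were selected on their measured levels in TNF cells against blank cells, and that difference is given below as a description, with no test. GMPs are progenitors in the bone marrow from which granulocytes and monocytes arise. All cells came from male and female mice, 12 to 19 weeks old, that were homozygous for GFP-p65 and heterozygous for H2BmCherry. GFP is fused to p65, one of the NfkB transcription factor subunits, so that its movement can be followed, and mCherry is fused to histone H2B. The cells were kept for 8 h in culture under a confocal microscope, picked 1 at a time with a micromanipulator, and sequenced as polyadenylated RNA by Smart-Seq2.

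Of the 238 cells that the authors tabulated, 60 were listed as blank and the others as TNF, and no dose of TNF is stated. The tables also give a class of NfkB response to each cell. The TNF cells were 56 oscillatory, 76 transient, 21 non-responsive, 5 sustained, 16 unclear and 4 outlier cells, and the blank cells were mostly non-responsive (47). The cells came from an experiment on 1 plate (51 TNF and 16 blank cells) and an experiment on 2 plates, with 59 TNF and 24 blank cells on Plate1 and 68 TNF and 20 blank cells on Plate2. These are called here the 1-plate and the 2-plate experiment. Each sample was 1 cell, so the experiment was the replicate (n = 2), and whether the experiments came from different mice or cultures is not stated, so the spread between them may be technical. Cells held 182301 to 3380416 reads, with a median of 1328300 in TNF cells and 1384964 in blank cells. The GMP label could not be checked against marker genes, because neither the files nor the reference table pair their identifiers with gene names.

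Acute phase proteins are secreted proteins whose levels in blood change during inflammation, and many are made in the liver under the control of cytokines such as IL-6, IL-1 and TNF. NfkB, STAT3 and C/EBP factors are known to act on their genes, and several of the genes are also used by myeloid cells. Saa3 encodes a serum amyloid A protein made largely outside the liver. Hp encodes haptoglobin, which binds free haemoglobin and is also stored in neutrophil granules. Slpi encodes a secreted inhibitor of neutrophil elastase and other serine proteases. Lcn2 encodes lipocalin 2, which binds bacterial siderophores and so withholds iron from bacteria, and which neutrophils store in their specific granules. Lrg1 encodes a secreted leucine-rich glycoprotein found in neutrophil granules and in plasma.

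The RefSeq promoter windows (assembly GRCm38.p6) are shown because 4 of the 5 genes were higher in TNF cells while Lrg1 was not, so the windows set genes of both kinds side by side. A window was found for 4 genes by symbol, all but Hp. Each line gives the 250 bases before the annotated start, 5′ to 3′ on the strand of the gene, and capitals mark the letters of the C/EBP motif TTGCNNAA on either strand.
Saa3 promoter, chr7:46715677-46715926, minus strand: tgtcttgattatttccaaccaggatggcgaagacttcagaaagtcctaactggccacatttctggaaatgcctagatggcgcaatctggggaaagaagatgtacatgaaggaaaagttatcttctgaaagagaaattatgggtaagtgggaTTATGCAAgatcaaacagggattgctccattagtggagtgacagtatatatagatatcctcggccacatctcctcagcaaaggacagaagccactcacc
Slpi promoter, chr2:164356508-164356757, minus strand: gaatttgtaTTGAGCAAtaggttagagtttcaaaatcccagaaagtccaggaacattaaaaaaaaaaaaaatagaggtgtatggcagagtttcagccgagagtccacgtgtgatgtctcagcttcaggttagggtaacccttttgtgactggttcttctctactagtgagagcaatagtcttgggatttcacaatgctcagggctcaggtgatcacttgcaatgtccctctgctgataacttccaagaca
Lcn2 promoter, chr2:32387740-32387989, minus strand: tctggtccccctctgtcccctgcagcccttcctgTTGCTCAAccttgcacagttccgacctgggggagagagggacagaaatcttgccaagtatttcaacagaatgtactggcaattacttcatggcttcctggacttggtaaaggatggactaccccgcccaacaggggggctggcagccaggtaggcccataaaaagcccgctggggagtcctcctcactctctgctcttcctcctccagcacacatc
Lrg1 promoter, chr17:56121947-56122196, minus strand: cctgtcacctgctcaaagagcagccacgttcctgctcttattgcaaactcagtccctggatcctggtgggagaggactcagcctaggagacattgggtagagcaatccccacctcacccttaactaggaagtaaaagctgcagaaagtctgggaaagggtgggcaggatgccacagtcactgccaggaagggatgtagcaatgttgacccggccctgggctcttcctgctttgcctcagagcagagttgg
The Saa3, Slpi and Lcn2 windows each held 1 such match, whose first base lay at -99, -241 and -216 relative to the start. The Lrg1 window held 0. The C/EBP letters were found in 9.56% of all 32851 windows of this length. On both strands, the kB motif, searched as 1 fixed pattern of letters, and the STAT motif TTCNNNGAA were found in 0 of the 4 windows, against 3.9% and 7.02% of all windows. A kB site with other letters, or outside these windows, would not be found by this search. A match is a description of letters, not of a bound site.

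Saa3, Hp, Slpi and Lcn2 were higher in TNF cells than in blank cells in both experiments, and Lrg1 was not. Levels are given as CPM, the reads of a gene scaled to a library of 1e6 reads of all genes, after the reads of all cells of a group were summed. Saa3 showed the widest difference of the 5. Its summed level was 104.9 CPM in TNF cells and 7.43 CPM in blank cells of the 1-plate experiment, a 14.1-fold difference. In the 2-plate experiment it was 150.8 CPM in TNF cells and 7.25 CPM in blank cells, a 20.8-fold difference. Saa3 belongs to a family of similar genes and overlaps another annotated gene, Gm31882, in RefSeq, so its reads could in part belong to a copy or to that gene.

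Hp was at 283 CPM in TNF cells and 64.2 CPM in blank cells of the 1-plate experiment (4.42-fold). In the 2-plate experiment Hp was at 537 CPM in TNF cells and 128.4 CPM in blank cells (4.18-fold). The Hp levels of both stimuli were thus higher in the 2-plate experiment, while the folds were close. Slpi, which overlaps the annotated microRNA gene Mir7678, was at 356 CPM in TNF cells and 115.7 CPM in blank cells of the 1-plate experiment (3.07-fold). For the 2-plate cells Slpi was at 508 CPM in TNF cells and 128.1 CPM in blank cells (3.96-fold).

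Lcn2 was at 183.01 CPM in TNF cells and 65.8 CPM in blank cells of the 1-plate experiment (2.78-fold). The 2-plate values were 267 CPM in TNF cells and 87.7 CPM in blank cells (3.05-fold), which join unlike plates. On Plate1 Lcn2 was at 337 CPM in TNF cells and 158.7 CPM in blank cells (2.12-fold), and on Plate2 at 183.6 CPM in TNF cells and 18.0 CPM in blank cells (10.2-fold). For Saa3 the folds of these plates were 27.1 and 15.3. The blank level of Lcn2 also rested on few cells, since 1 blank cell held 84.8% of the blank Lcn2 reads in the 1-plate experiment and 1 held 34.6% in the 2-plate experiment.

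Lrg1 goes against the grouping. It had a read in 3 TNF cells (1.69% of them), at 53.4, 15.7 and 1.03 CPM, and in 3 blank cells (5% of them), at 75.6, 14.1 and 6.71 CPM. Its summed level was 0 CPM in TNF cells, where a floor of 3 reads over the group is 0.0667 CPM, and 0.395 CPM in blank cells of the 1-plate experiment, and 0.529 CPM in TNF cells and 1.75 CPM in blank cells of the 2-plate experiment. The highest TNF cell was thus below the highest blank cell. At this depth no induction of Lrg1 was detectable, and Lrg1 did not pass the filter on low levels described next.

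**Figure D1:**
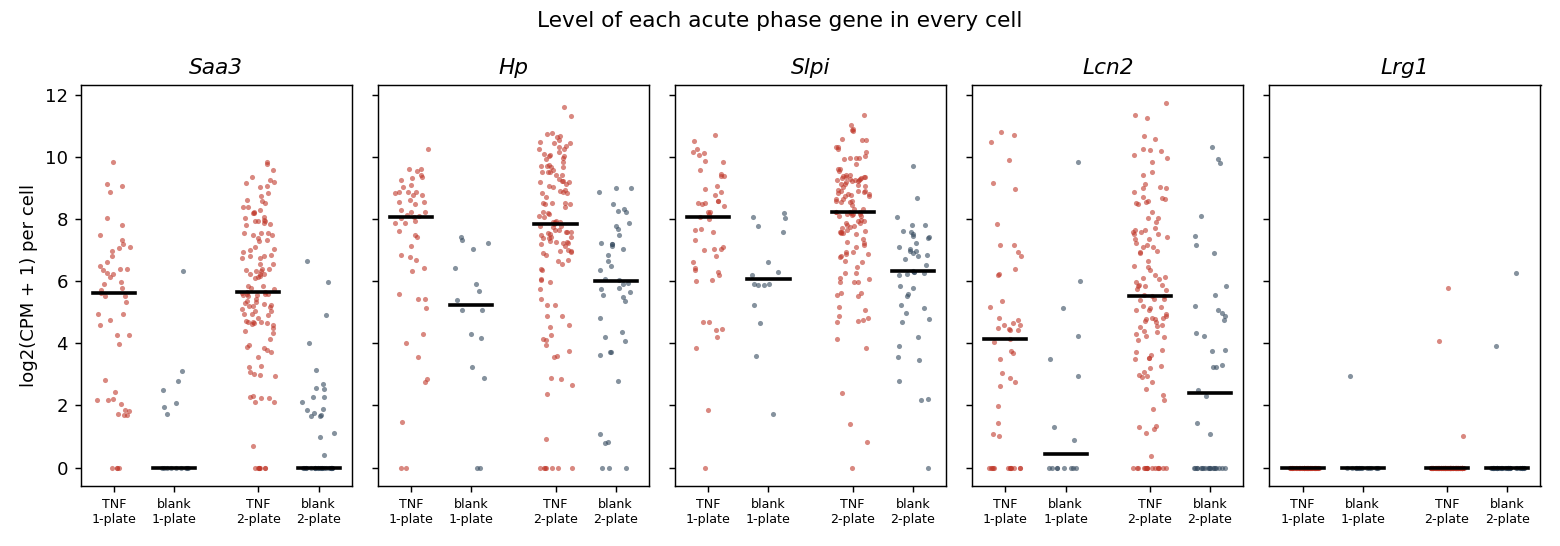
Level of each gene in every cell, as log2(CPM + 1), with TNF cells (red) left of blank cells (dark) for each experiment and the median as a black line. Saa3 has a median of 0 CPM in blank cells of both experiments, TNF and blank cells overlap for every gene, and Lrg1 has a read in 3 TNF and 3 blank cells.

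Fitted on the sums of both experiments with edgeR, the difference of TNF minus blank cells on the log2 scale was 4.17 ± 0.24 for Saa3, 2.15 ± 0.15 for Hp, 1.85 ± 0.17 for Slpi and 1.59 ± 0.16 for Lcn2 (SE, n = 2 experiments). Here and below, SE is the absolute difference divided by the square root of edgeR's F statistic. It rests on a spread partly shared over genes, so it is not the spread between the 2 experiments. Without the highest cell of each sum it was 5.35 for Saa3 and 2.79 for Lcn2. In the 1-plate experiment that cell held 76.99% of the blank and 18.8% of the TNF reads of Saa3. For Lcn2 it held 84.8% of the blank and 35.5% of the TNF reads. Its share was also larger in blank cells of the 2-plate experiment, for both genes. The wider differences thus follow from the choice of cell and add no support. Saa3, Hp, Slpi and Lcn2 had a mean of at least 10 CPM over the sums, the level asked of every gene. Their median difference was 2.0, against -0.01 over all 8520 genes tested. Over all genes, 3.29% of those tested were called at an adjusted p of 0.05. As the 4 genes were selected on this contrast, no test of them is given, and the SE is not to be read as one.

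Saa3 differed in how many cells had any read of it. Reads of Saa3 were found in 92.2% of TNF cells against 43.8% of blank cells on the single plate, and for the 2-plate experiment these shares were 93.7% of TNF cells and 45.5% of blank cells. Its median over cells was 48.1 CPM in TNF cells and 0 CPM in blank cells of the 1-plate experiment, and 49.4 CPM in TNF cells and 0 CPM in blank cells of the 2-plate experiment. Hp and Slpi were instead detected in most cells of either stimulus. Over both experiments Hp had a read in 94.9% of TNF cells and 91.7% of blank cells, and Slpi in 98.9% of TNF cells and 98.3% of blank cells. Lcn2 lay between these patterns, with a read in 83.7% of TNF cells and 55% of blank cells. Counts of cells with a read rest on the depth of each cell, and the median depths of TNF and blank cells are close.

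Single TNF cells spread over a wide range and overlapped with blank cells for every gene. Saa3 ranged from 0 to 917 CPM over the TNF cells of the 1-plate experiment and from 0 to 914 CPM over those of the 2-plate experiment. The highest blank cell stood at 79.1 CPM in the 1-plate experiment and 98.9 CPM in the 2-plate experiment, and 35.3% and 36.2% of TNF cells lay above it. For Hp, 62.7% of the TNF cells of the 1-plate and 32.3% of those of the 2-plate experiment lay above the highest blank cell. For Slpi the shares were 47.1% and 14.2% in the same order. For Lcn2 they were 7.84% and 3.94%, since single blank cells reached 903 CPM and 1263 CPM. The number of blank cells differs between the experiments, which bears on how high their highest cell is.

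The genes were not raised in all TNF cells, nor always in the same ones. A gene was counted as raised in a cell where it lay above the 90th percentile of the blank cells of that experiment, and the 4 genes other than Lrg1 were counted. Few blank cells can lie above a cutoff set on those same cells, and the genes were selected on TNF against blank cells. The counts are thus a description and not a test. All 4 genes were raised in 4 TNF cells (7.84%) and 0 of 16 blank cells of the 1-plate experiment, and in 17 TNF cells (13.4%) and 0 of 44 blank cells of the 2-plate experiment. Exactly 3 genes were raised in 21 TNF cells (41.2%) and 0 blank cells of the 1-plate experiment, and in 42 TNF cells (33.1%) and 1 blank cell of the 2-plate experiment. At the other end, 0 genes were raised in 8 TNF cells (15.7%) and 10 blank cells (62.5%), and in 13 TNF cells (10.2%) and 28 blank cells (63.6%), in the same order. By the blank cutoff Lcn2 was raised least often, with 27.5% of TNF cells on the single plate and 29.1% in the other experiment. Saa3 was raised most often, with 70.6% and 85.8%. The cutoff differed between genes, at 6.73 and 7.12 CPM for Saa3 and 48.9 and 165.3 CPM for Lcn2, so this order depends on it. Above the blank median lay 74.5% and 81.1% of TNF cells for Lcn2, in the same order of experiments. Those shares were 82.4% and 77.95% for Hp, 80.4% and 81.1% for Slpi and 92.2% and 93.7% for Saa3.

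Among TNF cells, the oscillatory and transient classes were compared, which asks whether the dynamics of NfkB go with the levels of these genes. Both classes received TNF, so this contrast is not the one that the genes were selected on. Lcn2 was lower in oscillatory cells, and the other 3 genes did not pass the test. Of the 4 genes tested 1 was called, against 3.0% of all 8436 genes tested. The median difference of the 4 was -0.42 on the log2 scale, against -0.02 over all genes.

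Lcn2 stood at 50.6 CPM in the 20 oscillatory cells and 311 CPM in the 25 transient cells of the 1-plate experiment, a level 6.14-fold lower in oscillatory cells. In the 2-plate experiment it stood at 119.8 CPM in 36 oscillatory cells and 403 CPM in 51 transient cells, 3.37-fold lower. On its Plate1 the levels were 157.3 CPM in oscillatory and 511 CPM in transient cells, and on its Plate2 49.1 CPM in oscillatory and 290.0 CPM in transient cells. Oscillatory cells were thus lower in both experiments and on each plate. The fitted log2 difference was -2.09 ± 0.26 (SE, n = 2 experiments), with an adjusted p of 0.013 in edgeR's quasi-likelihood test with Benjamini-Hochberg adjustment over all genes tested, two-sided. Over 14 alternatives in processing it ran from -3.05 to -1.99, with an adjusted p from 2.6e-14 to 0.9999, and it was called in 9. The setting that gave -3.05 is among these 9, and it leaves out cells chosen on Lcn2 itself, as described below. The call was lost with edgeR's default filter on low counts (adjusted p 0.061), with no experiment term (0.38), with spike-in size factors (0.9999) and without Plate1 of the 2-plate experiment (adjusted p 0.11).

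A smaller share of oscillatory cells had a high level of Lcn2 in each experiment, whereas the share of cells with any read was lower in 1 experiment and higher in the other. Lcn2 was above 100 CPM in 2 of 20 oscillatory and 7 of 25 transient cells of the 1-plate experiment. The counts were 7 of 36 oscillatory and 22 of 51 transient cells for the 2-plate experiment. It had a read in 13 of 20 oscillatory and 20 of 25 transient cells of the 1-plate experiment, but in 34 of 36 oscillatory and 44 of 51 transient cells of the 2-plate experiment. Median levels over cells were 11.1 CPM in oscillatory and 23.1 CPM in transient cells of the 1-plate experiment, and 25.6 CPM in oscillatory and 66.7 CPM in transient cells of the 2-plate experiment. A single cell held 69.1% of the oscillatory and 45.9% of the transient Lcn2 reads in the 1-plate experiment, and 57.8% of the oscillatory and 13.9% of the transient reads in the 2-plate experiment. With the cell of the most Lcn2 reads left out of each sum, the log2 difference was -3.05 and the adjusted p 0.0072 in the same edgeR test. That cell was chosen on Lcn2 itself and held a larger share of the oscillatory reads in both experiments. The wider difference thus follows from the choice, and this p adds no support.

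The classes also held unlike shares of S-phase cells, by the phase that the cell tables give. These were 2 of 20 oscillatory and 7 of 25 transient cells in the 1-plate experiment, and 2 of 36 oscillatory and 12 of 51 transient cells in the 2-plate experiment. Within G2M cells alone the Lcn2 difference was -2.02 on the log2 scale, against -2.09 over all phases. With an adjusted p of 0.26 in edgeR's test it was not called, as were 0 of all 8408 genes in G2M cells. Whether phase accounts for the Lcn2 difference was not tested.

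Compared with non-responsive blank cells, the summed Lcn2 level of oscillatory TNF cells was lower in the 1-plate and higher in the 2-plate experiment, as a description with no test. It stood at 50.6 CPM in oscillatory TNF cells and 82.1 CPM in non-responsive blank cells of the 1-plate experiment, and at 119.8 CPM in oscillatory TNF cells and 94.8 CPM in non-responsive blank cells of the 2-plate experiment. On Plate1 of the 2-plate experiment the ratio of oscillatory TNF to non-responsive blank cells was 0.911, and on Plate2 it was 2.24. The median over cells was higher in oscillatory TNF cells in both experiments, at 11.1 CPM in oscillatory TNF and 1.48 CPM in non-responsive blank cells of the 1-plate experiment, and at 25.6 CPM in oscillatory TNF and 8.69 CPM in non-responsive blank cells of the 2-plate experiment. A single cell held 84.8% of the Lcn2 reads of the 13 non-responsive blank cells of the 1-plate experiment. The fitted log2 difference of Lcn2 was -0.08 ± 0.25 (SE) for oscillatory TNF minus non-responsive blank cells, and 2.01 ± 0.26 (SE) for transient TNF minus non-responsive blank cells. These values share the blank cells.

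Saa3, Hp and Slpi did not pass the test between oscillatory and transient cells. Saa3 was at 80.6 CPM in oscillatory and 145.98 CPM in transient cells of the 1-plate experiment, and at 129.8 CPM in oscillatory and 163.2 CPM in transient cells of the 2-plate experiment. Its log2 difference was -0.50 ± 0.32 (SE, edgeR adjusted p 0.53). Slpi was at 290.0 CPM in oscillatory and 414 CPM in transient cells, and at 414 CPM in oscillatory and 507 CPM in transient cells, in the same order of experiments. Its log2 difference was -0.34 ± 0.13 (SE, edgeR adjusted p 0.25). Hp was at 279 CPM in oscillatory and 299 CPM in transient cells, and at 597 CPM in oscillatory and 550 CPM in transient cells. Its log2 difference was 0.07 ± 0.13 (SE, edgeR adjusted p 0.87). Slpi was lower in oscillatory cells of both experiments, as was Saa3, and Hp was lower in 1 and higher in the other. A p that misses the threshold does not show that the levels were the same. Against non-responsive blank cells, the log2 differences of oscillatory TNF cells were 4.02 for Saa3, 2.51 for Hp and 1.66 for Slpi, and those of transient TNF cells 4.52, 2.44 and 2.0 for the same genes.

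**Figure D2:**
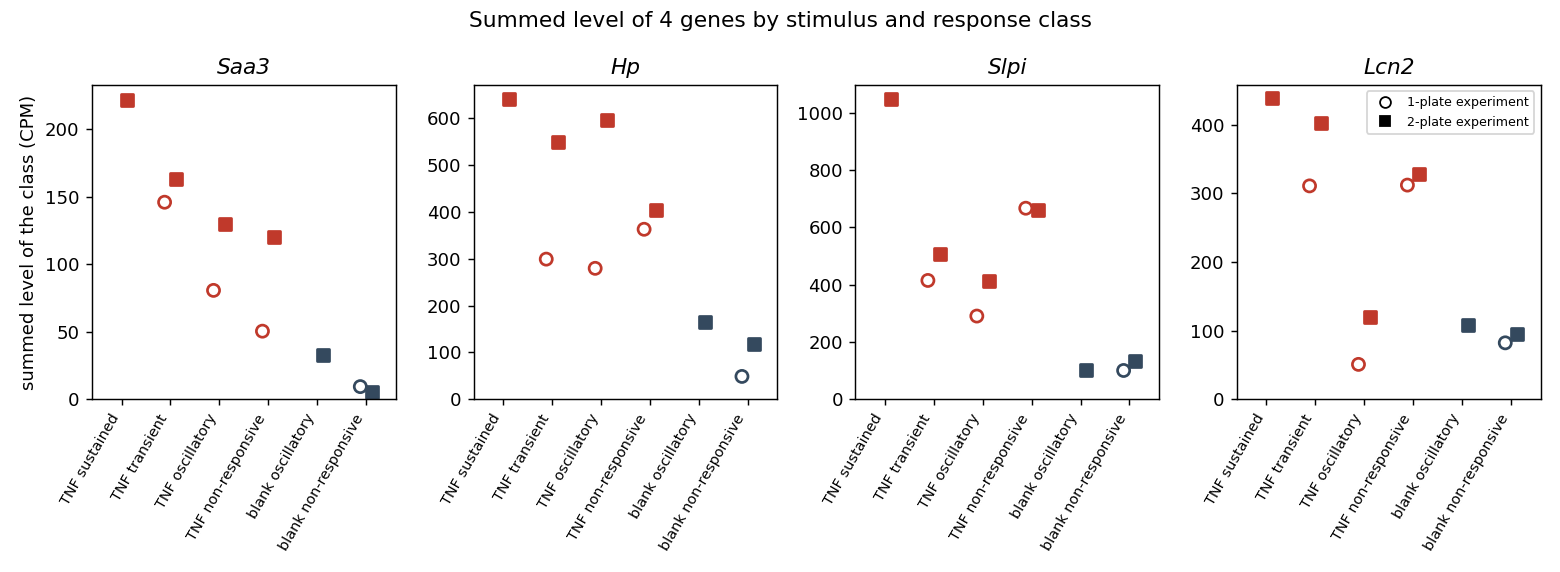
Summed level in CPM of 4 genes by stimulus and response class, with sustained, transient, oscillatory and non-responsive TNF cells and oscillatory and non-responsive blank cells, with the 1-plate experiment as open circles and the 2-plate experiment as filled squares, TNF classes in red and blank classes in dark. Lcn2 in oscillatory TNF cells, at 50.6 and 119.8 CPM, stands on either side of non-responsive blank cells, at 82.1 and 94.8 CPM, while Saa3, Hp and Slpi are above non-responsive blank cells in the 4 TNF classes drawn; sums can rest on few cells.

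TNF cells that the authors' tables class as non-responsive also had higher levels of the 4 genes than blank cells of the same class. In the 2-plate experiment 18 such TNF cells were set against 34 blank cells, with 1 sum each and so no replicate check. The genes were selected on TNF against blank cells, so the levels and intervals here are a description and not a test. Saa3 was at 120 CPM (95% Poisson interval 115.9 to 124.2) in TNF and 4.97 CPM (4.43 to 5.56) in blank non-responsive cells, 24.1-fold higher. Slpi was at 659 CPM (649 to 669) in TNF and 133.3 CPM (130.5 to 136.2) in blank non-responsive cells, 4.94-fold higher. Hp was at 404 CPM (397 to 412) in TNF and 116.7 CPM (114.02 to 119.4) in blank non-responsive cells, 3.46-fold higher. Lcn2 was at 329 CPM (322 to 336) in TNF and 94.8 CPM (92.4 to 97.3) in blank non-responsive cells, 3.47-fold higher. By plate, the folds on Plate1 and Plate2 were 22.4 and 24.3 for Saa3, 5.54 and 3.71 for Slpi, 2.74 and 5.28 for Hp and 2.82 and 6.75 for Lcn2. The intervals treat each read as an independent count, but reads are not independent molecules. They also leave out the spread between cells, so they understate the error of a group level. A single cell held 34.01% of the Saa3 reads of the non-responsive TNF cells, and 16 of the 18 cells had a read of it. The 1-plate experiment held 3 non-responsive TNF cells, with Saa3 at 50.4 CPM in them and 9.27 CPM in 13 blank cells.

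The sustained and unclear classes were small and in the 2-plate experiment, and each value is from 1 sum. In 5 sustained cells Saa3 was at 222 CPM, Hp at 642 CPM, Slpi at 1050 CPM and Lcn2 at 439 CPM. In 16 unclear cells Saa3 was at 189 CPM, Hp at 465 CPM, Slpi at 450 CPM and Lcn2 at 74.04 CPM. The 3 outlier TNF cells of the 1-plate experiment had lower summed levels, with Saa3 at 17.3 CPM, Hp at 99.9 CPM, Slpi at 33.4 CPM and Lcn2 at 5.11 CPM. They were not alike, as 1 of them held 90.9% of their Saa3 and 99.2% of their Hp reads. That cell had Saa3 at 82.9 CPM and Hp at 522 CPM. The outlier TNF cell of the 2-plate experiment had Saa3 at 6.96 CPM, Hp at 52.2 CPM, Slpi at 287 CPM and Lcn2 at 3.48 CPM. Each sustained cell had at least 134.6 CPM of Slpi. Of the blank cells of the 2-plate experiment, 5 were oscillatory, of which 1 held 99.6% of their Saa3 reads and another, on the other plate, all of their Lcn2 reads.

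Phase was the other feature of the TNF cells that the selection did not use. In G2M minus G1 cells 0 of the 4 genes were called by edgeR, against 1.46% of 8555 genes tested. At an unadjusted p under 0.05 it was 1 gene, Lcn2, against 16.3% of all genes, and by DESeq2 also 1, Lcn2 again, against 7.66%. In S minus G1 cells 0 of the 4 were called by edgeR, against 6.38% of genes, with 1 gene, Slpi, at an unadjusted p under 0.05 (24.99% of all genes), and 1, Slpi, by DESeq2 (15.8% of all genes). The median differences of the 4 were -0.14 for G2M minus G1 and -0.09 for S minus G1, against -0.01 and 0.01 over all genes.

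Lcn2 was at 66.5 CPM in G2M and 266 CPM in G1 cells of the 1-plate experiment, and at 219 CPM in G2M and 282 CPM in G1 cells of the 2-plate experiment. The log2 difference was -1.16 ± 0.42 (SE, n = 2 experiments, adjusted p 0.25 in edgeR's quasi-likelihood test and 0.030 in DESeq2). Lcn2 in S cells was at 441 CPM and 413 CPM in the 1-plate and the 2-plate experiment, above G1 in both (0.60 ± 0.41 SE, edgeR adjusted p 0.40). Slpi was at 242 CPM in S and 320 CPM in G1 cells of the 1-plate experiment, and at 393 CPM in S and 574 CPM in G1 cells of the 2-plate experiment. Its log2 difference was -0.52 ± 0.17 (SE, adjusted p 0.12 in edgeR and 0.040 in DESeq2). Hp was at 334 CPM in G2M and 173.3 CPM in G1 cells, and at 633 CPM in G2M and 489 CPM in G1 cells, in the same order of experiments (0.56 ± 0.27 SE, edgeR adjusted p 0.36). Saa3 differed by -0.30 ± 0.21 for G2M minus G1 and 0.02 ± 0.21 for S minus G1 (SE, edgeR adjusted p 0.51 and 0.95). The 1-plate experiment had 9 TNF cells in G1, of which 1 held 75.04% of the Saa3 and 1 held 58.1% of the Lcn2 reads.

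**Figure D3:**
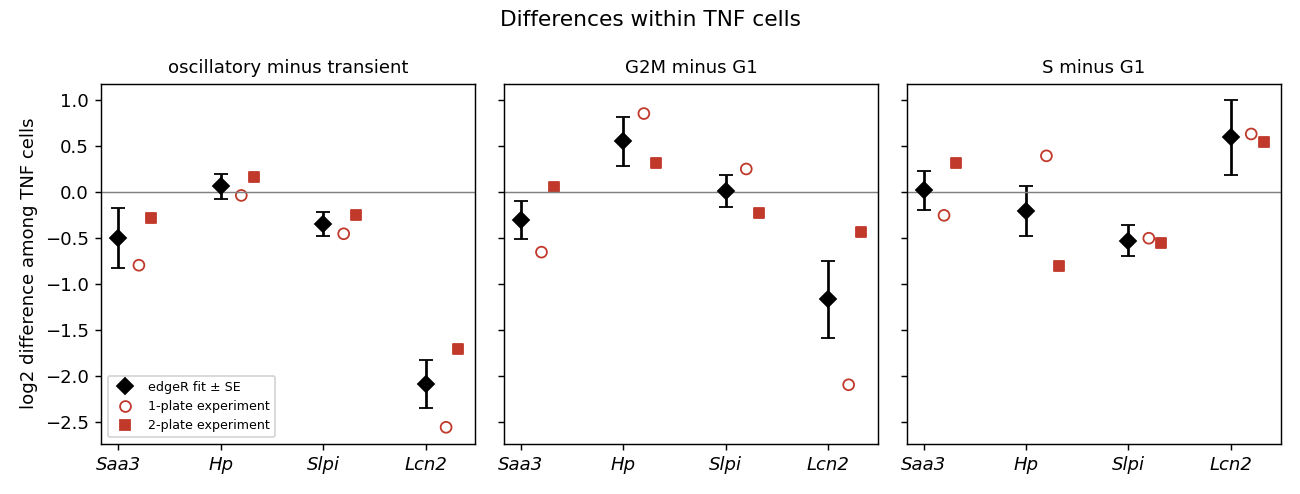
Log2 differences among TNF cells for 4 genes: oscillatory minus transient, G2M minus G1 and S minus G1. Black diamonds are the edgeR fit with SE bars, open circles the 1-plate and filled squares the 2-plate experiment; Lcn2 in the left panel, at -2.09, is the 1 difference that was called.

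Across single TNF cells Hp and Slpi varied together most closely. Their Spearman rho was 0.56 over the 51 cells of the 1-plate experiment and 0.61 over the 59 and 68 cells on the plates of the 2-plate experiment. In blank cells it was 0.43 (n = 16) and 0.50 (n = 44). Saa3 and Lcn2 followed with 0.32 and 0.49 in TNF cells, and Saa3 and Hp with 0.30 and 0.44. Saa3 and Slpi had 0.20 and 0.38, Slpi and Lcn2 0.29 and 0.22, and Hp and Lcn2 0.15 and 0.14. Cells of an experiment share plates and library preparation and differ in depth. The rho of the 2-plate experiment joins plates of unlike level, and none was computed within a plate. Medians over TNF cells on Plate1 and Plate2 were 361 and 161.2 CPM for Hp and 434 and 257.7 CPM for Slpi. With cells thinned to 400000 reads, the rho of Hp and Slpi was 0.50 and 0.57, and that of Saa3 and Lcn2 0.30 and 0.51. Saa3 and Hp then had 0.18 and 0.39, Saa3 and Slpi 0.10 and 0.30, Slpi and Lcn2 0.28 and 0.19, and Hp and Lcn2 0.085 and 0.017.

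**Figure D4:**
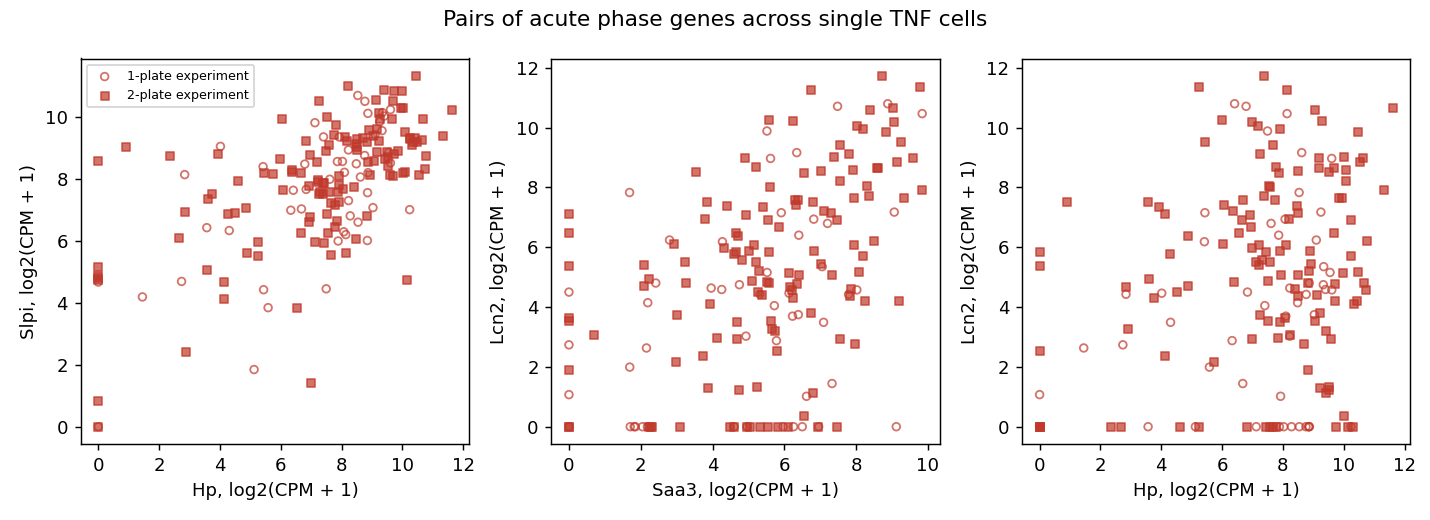
Levels of 3 pairs of genes across single TNF cells, as log2(CPM + 1) on both axes, with the 1-plate experiment as open circles and the 2-plate experiment as filled squares. Hp and Slpi rise together (rho 0.56 and 0.61), Saa3 and Lcn2 less closely (0.32 and 0.49), and Hp and Lcn2 hardly (0.15 and 0.14).

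The genes whose pattern was most like that of the summed 5 genes were sought among 10912 genes with a read in at least 20% of the TNF cells of each experiment. By the mean over experiments of Spearman's rho with the summed level, which includes each of the 5 genes itself, Hp had 0.74, Slpi 0.74, Saa3 0.59 and Lcn2 0.50. Outside the 5, ENSMUSG00000058624 had the highest mean rho, 0.64 (0.65 on the single plate and 0.62 for the 2-plate experiment), followed by ENSMUSG00000041754 at 0.61 (0.56 and 0.66). Of the genes outside the 5, 4 stood above Saa3 and 19 above Lcn2, these 2 among them. No test was made, and cells are not independent samples.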

How the data were processed

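The authors deposited whole-read counts per Ensembl gene, made with featureCounts, Subread 1.5.0 and SAMtools per the submitters' processing notes. Build, annotation, strand setting and the making of classes and phases were not stated. Left out were 357 count columns of no sample, 92 spike-in features and 44 samples absent from the cell tables. Counts of at least 5 cells were summed per experiment and condition (6371417 to 200524120 reads a sum). edgeR 4.0.16 in R 4.3.3 was run with TMM factors, genes at a mean of 10 CPM or more, an experiment term, quasi-likelihood tests and Benjamini-Hochberg adjustment over all genes at 0.05. Residual degrees of freedom were 1 for the TNF fit and 2 for the class and phase fits. Each fit was also run on sums simulated with the spread that edgeR estimated, though not for S minus G1. Such sums are not built from cells, so the run does not bear on sums in which 1 cell holds most reads. DESeq2 1.42.0 and further settings served as alternatives. The members and lists were chosen with earlier results of these data known. By rule the text names the 5 genes and the 2 identifiers most like their sum. Lists and markers set by symbol matched 0 of 55450 identifiers through the RefSeq table and were not analysed here.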

Additional observations from a re-analysis of the deposited data

Results flagged for a closer look

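The groups of 5 cells, sustained TNF and oscillatory blank, were looked at for single cells far from the others, over 10 combinations of group and gene, and 5 stood apart. Chance gives about 1 in 20 for normally distributed values, which does not apply here, since a gene read in 1 of 5 cells always stands apart. Among sustained TNF cells 1 cell had Saa3 at 768 CPM, with the next at 221 CPM, and 1 cell had Lrg1 at 15.7 CPM, with the others at 0. Among oscillatory blank cells, single cells had Saa3 at 98.9 CPM (next 1.17 CPM), Hp at 468 CPM (next 49.3 CPM) and Lcn2 at 982 CPM (next 0).

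The 44 samples that the cell tables do not list, 1805 to 1130586 reads deep, also held reads of these genes. Their summed levels were 75.1 CPM for Saa3 against 7.28 CPM in all blank cells, 246 CPM for Hp against 117.8 CPM, 299 CPM for Slpi against 126.1 CPM and 87.02 CPM for Lcn2 against 84.1 CPM. Their stimulus is not given in the tables, and Saa3 was read in 14 of the 44.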

How the results depend on the processing

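No paired analysis was possible because the replicate numbers only name wells and pair no samples. The main fits do compare conditions within experiments, through the experiment term. The experiment is the replicate (n = 2), degrees of freedom are few, and Lcn2 sums rest on few cells. With spike-in factors, added after the data were seen, the median log2 difference of all genes was 0.36 for TNF minus blank, 0.16 for oscillatory minus transient, 0.37 for G2M minus G1 and 0.13 for S minus G1, against -0.01, -0.02, -0.01 and 0.01 with TMM factors. A comparison of classes in G1 cells only gave no value, since its sums left no residual degrees of freedom. The cause of the changes below was not tested.

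In oscillatory minus transient TNF cells the Lcn2 call was lost with the default filter (-2.08, edgeR adjusted p 0.061), no experiment term (-1.99, 0.38), without Plate1 (-2.48, 0.11), with spike-in factors (-2.02, 0.9999) and in G2M cells only (-2.02, 0.26). Saa3 reversed in G2M cells only (0.060), and Hp with sums per plate (-0.080), without Plate1 (-0.22) and in G2M cells only (-0.021). Each experiment alone gave -0.79 and -0.28 for Saa3, -0.033 and 0.17 for Hp, -0.45 and -0.24 for Slpi and -2.55 and -1.70 for Lcn2. The share of genes called, 3.0% with the main setting, was 7.14% with DESeq2, 0.604% with no filter, 0.199% with the default filter, 0.584% without Plate1, 0.305% without Plate2 and 0.0356% with spike-in factors. It was 0 with no experiment term (edgeR, 541 genes at an unadjusted p under 0.05) and 0 in G2M cells only (edgeR, 664 genes).

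In G2M minus G1 cells Saa3 reversed with spike-in factors (0.090) and without the highest cell of each sum (0.59). Slpi reversed with DESeq2 (-0.0032), relative log expression factors (-0.0029), no experiment term (-0.048), sums per plate (-0.012), without Plate2 (-0.076), with thinned cells (-0.056) and in cells of 8000 or more detected genes (-0.00083). Lcn2 was called with DESeq2 (-1.19). Each experiment alone gave -0.65 and 0.061 for Saa3, 0.86 and 0.32 for Hp, 0.25 and -0.23 for Slpi and -2.09 and -0.43 for Lcn2. The share of genes called, 1.46% with the main setting, was 7.66% with DESeq2, 0.968% with no filter, 0.552% with the default filter, 0.0584% with no experiment term, 3.58% with sums per plate and 5.07% with spike-in factors.

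In S minus G1 cells Saa3 reversed with thinned cells (-0.27), and Slpi was called with DESeq2 (-0.54). Each experiment alone gave -0.25 and 0.32 for Saa3, 0.40 and -0.80 for Hp, -0.50 and -0.55 for Slpi and 0.64 and 0.55 for Lcn2. The share of genes called, 6.38% with the main setting, was 15.8% with DESeq2, 2.63% with no filter, 0.969% with the default filter, 13.4% with sums per plate, 2.46% without Plate2 and 0 with no experiment term (edgeR, 1044 genes at an unadjusted p under 0.05).

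In TNF minus blank cells Saa3, Hp, Slpi and Lcn2 stayed higher in TNF cells under every setting run. A value is listed as moved where it differed from the main fit by at least the standard deviation over the experiments. That deviation was small for Hp and wide for Saa3, so small shifts are listed for Hp and larger ones left out for Saa3. The lists thus do not rank the genes by stability. Saa3 moved to 5.35 without the highest cell of each sum. For Saa3, Hp and Lcn2 that cell held a larger share of the blank than of the TNF reads in both experiments. Their wider differences without it thus follow from the choice of cell. Hp moved to 2.12 (default filter), 2.28 (without Plate1), 2.05 (without Plate2), 2.27 (8000 genes), 2.52 (spike-in factors) and 2.24 (without the highest cell), and Slpi to 2.22 (spike-in factors). Lcn2 moved to 2.001 (sums per plate), 2.51 (without Plate1), 1.29 (without Plate2), 1.96 (spike-in factors) and 2.79 (without the highest cell). Each experiment alone gave 3.81 and 4.48 for Saa3, 2.13 and 2.17 for Hp, 1.61 and 2.09 for Slpi and 1.46 and 1.71 for Lcn2. The share of genes called, 3.29% with the main setting, was 6.03% with DESeq2, 1.40% with no filter, 0.446% with the default filter, 7.05% without Plate2 and 5.82% with thinned cells. It was 0 with no experiment term (edgeR, 440 genes at an unadjusted p under 0.05) and 0 with spike-in factors (edgeR, 35 genes). The rho of Hp and Lcn2 reversed over 2-plate TNF cells with a read of both (-0.021). In 1-plate TNF cells with a read of both genes, rho was 0.10 for Saa3 and Hp and 0.071 for Saa3 and Slpi. For Slpi and Lcn2 it was 0.12 there, and for Hp and Lcn2 0.29. At 5 or more reads, Saa3 was found in 72.5% of TNF and 25% of blank cells of the 1-plate experiment. Those shares were 90.6% of TNF and 31.8% of blank cells for the 2-plate experiment.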
